A study of Homo sapiens with 8 samples.

Results

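The genes of glycolysis and of the response to low oxygen were described in spheroids of an ovarian carcinoma line and of its cisplatin-resistant derivative. The list names 40 genes, taken by symbol among the probesets annotated to 1 gene, with the probeset of highest mean representing a gene that had several. Of these 40, 38 could be measured and all 38 passed the filter on low signal, among 15931 genes tested in all. PGAM1 was covered only by probesets shared with PGAM4, and no probeset with 1 gene measured CA9, so neither was analysed here.

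Glycolysis splits glucose into pyruvate through a chain of enzymes, several of which exist as isoenzymes encoded by separate genes, and pyruvate is then either reduced to lactate or passed into mitochondria. When oxygen is scarce, the alpha subunits of the hypoxia-inducible factor (HIF) escape the prolyl hydroxylases that mark them for degradation, pair with ARNT and raise the transcription of many glycolytic enzymes and of genes for vessel growth, pH control and mitophagy. Oxygen falls towards the centre of tumors and of large spheroids, which is one reason why this program is often followed in ovarian cancer models. Oxygen itself was not measured in these samples.

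RNA came from 4 arrays of cisplatin-resistant OVCAR-8R spheroids, named OVCAR-8C in the labels, and from 4 arrays of parental OVCAR-8 spheroids labelled cisplatin-sensitive. OVCAR-8 is a human ovarian adenocarcinoma line, and its derivative was selected in culture under increasing cisplatin, of which 5 μM was the highest concentration. Both lines were kept in DMEM with 10% FBS, and spheroids of about 300 μm were formed in molds of 2% agarose. The resistant group is a single derived line, so its differences from the parent are those of this derivative.

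Signals are Affymetrix Human Gene ST array intensities computed by RMA and put on the log2 scale, on which 1 unit is a doubling. Array medians lay between 6.68 and 6.73 in OVCAR-8R and between 6.67 and 6.73 in OVCAR-8. A call required a difference of at least 2-fold together with a limma p under 0.05 after Benjamini-Hochberg adjustment over all 25628 probesets tested. Of 10 ovarian carcinoma epithelium markers, 6 were called higher in OVCAR-8R and none lower (60% called, beside 16.7% of all genes tested). The summed linear signal of the 10 was 11768 to 12661 in OVCAR-8R and 1957 to 2280 in OVCAR-8. KRT8 averaged 12.50 in OVCAR-8R and 9.54 in OVCAR-8, and PAX8 10.28 in OVCAR-8R and 6.51 in OVCAR-8. Among those not called, CDH1 (6.02 in OVCAR-8R, 6.25 in OVCAR-8) and MUC16 (5.74 in OVCAR-8R, 5.67 in OVCAR-8) were dim in both. WT1 and CDH1, of the same list, went the other way without overlap and without reaching 2-fold. WT1 was at 6.19 in OVCAR-8R and 7.05 in OVCAR-8 (difference -0.86, limma adjusted p = 0.000202). CDH1 had a difference of -0.23 (limma adjusted p = 0.0465). Of 12 markers of blood, vessel, liver and glial cells, 7 passed the filter, with means between 4.96 and 6.79 and sums between 352 and 416 for OVCAR-8R arrays and between 350 and 375 for OVCAR-8 arrays. The pericyte gene RGS5 was the one called in that list, at 4.96 in OVCAR-8R, within the lowest quartile, and 6.19 in OVCAR-8. PDGFRB, of the same list, went the other way without overlap and without reaching 2-fold. It was at 6.79 in OVCAR-8R and 6.19 in OVCAR-8 (difference 0.60, limma adjusted p = 0.000242). The part of these marker differences in the results below was not tested. OVCAR-8R arrays 2 and 4 deviated together from arrays 1 and 3 over all probesets, and the members that show it are named with DDIT4 below. In RNA from whole spheroids, fewer cells expressing a gene and less RNA per cell cannot be told apart.

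Glycolysis and hypoxia genes did not move as a block. In OVCAR-8R spheroids 9 of the 38 were called higher, 6 were called lower and 23 were not called, which is 39.5% called, beside 16.7% of all genes tested (8.37% higher and 8.37% lower). ANGPTL4 rose by 3.06 on the log2 scale, ENO2 by 2.35, PFKP by 2.13, EPAS1 by 1.65 and HK1 by 1.34, and PKM, P4HA2, NDRG1 and ADM rose by 1.09, 1.09, 1.03 and 1.003. The genes that fell had differences of -3.62 for CA2, -1.93 for EGLN3, -1.83 for ALDOC, -1.52 for PDK3, -1.44 for HK2 and -1.06 for PDK1. With the adjusted p alone and no minimum size, 21 members passed upward and 12 downward (33 of 38), beside 57.6% of all genes in either direction. The 21 glycolytic members gave 4 higher and 4 lower (38.1%), and the 17 hypoxia response members gave 5 higher and 2 lower (41.2%). For 34 of the 38 (89.5%) the 4 arrays of one line did not overlap the 4 of the other, as was so for 56.8% of all genes. Members were also brighter than the average gene, with a median signal of 9.55, beside 7.56 over all genes tested, and their median difference was 0.29, beside -0.01. Their arrays spread less, with a median SD across OVCAR-8R arrays of 0.0874 and across OVCAR-8 arrays of 0.105, beside 0.119 and 0.122 over all genes in the same lines.

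**Figure D1:**
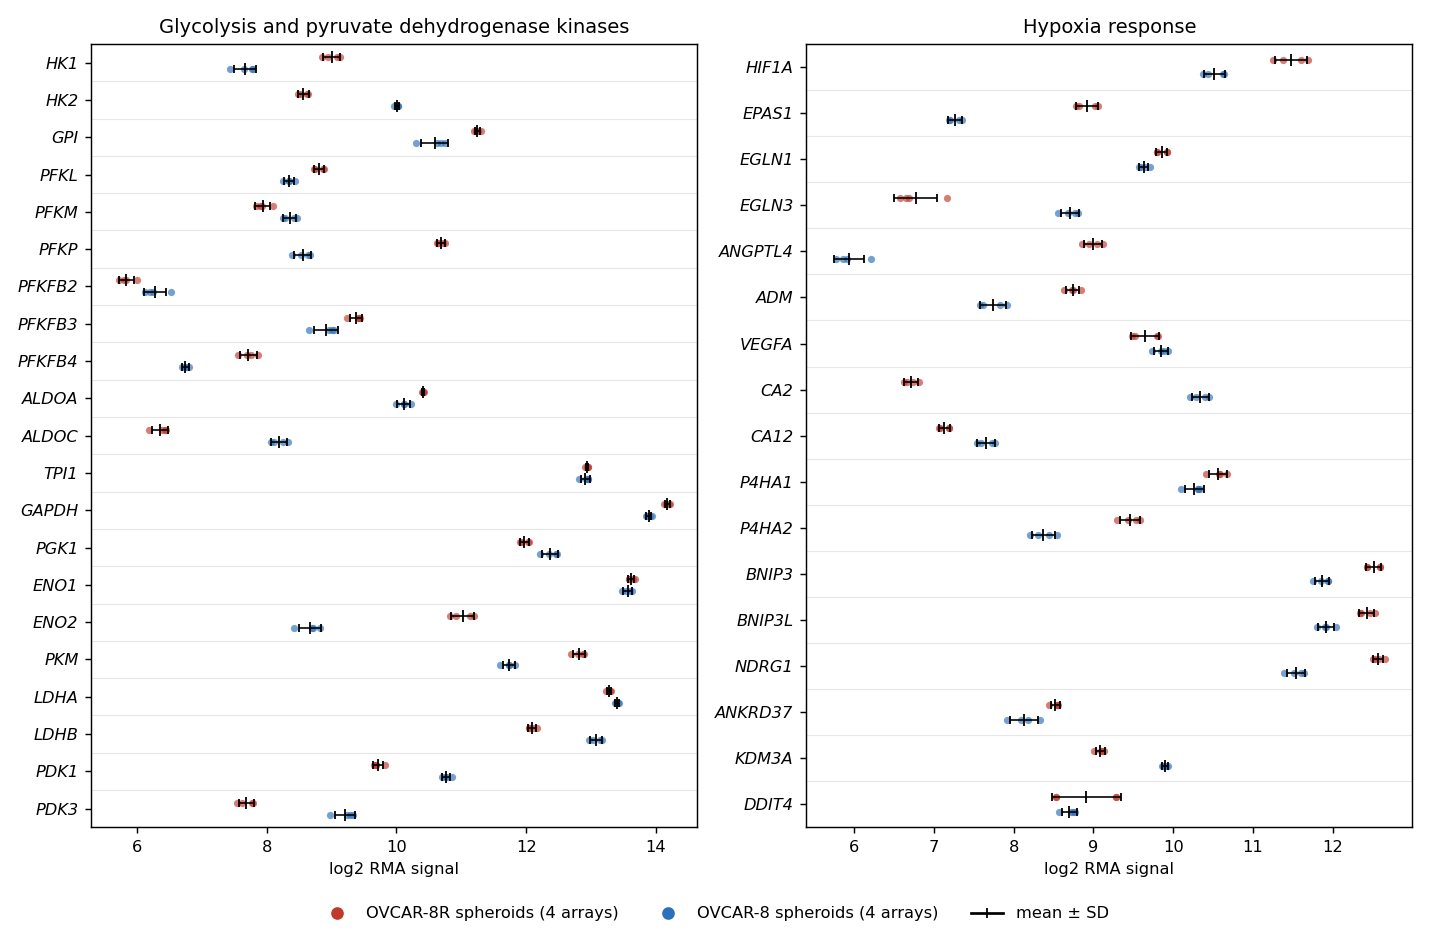
Log2 RMA signal (horizontal axis) of the 38 measured genes on each of 4 OVCAR-8R arrays (red, upper row of each gene) and 4 OVCAR-8 arrays (blue, lower row), black marking mean and SD per line. CA2 averages 6.71 in OVCAR-8R and 10.34 in OVCAR-8, ANGPTL4 8.99 in OVCAR-8R and 5.94 in OVCAR-8, and the OVCAR-8R arrays of DDIT4 fall into 2 pairs.

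**Figure D2:**
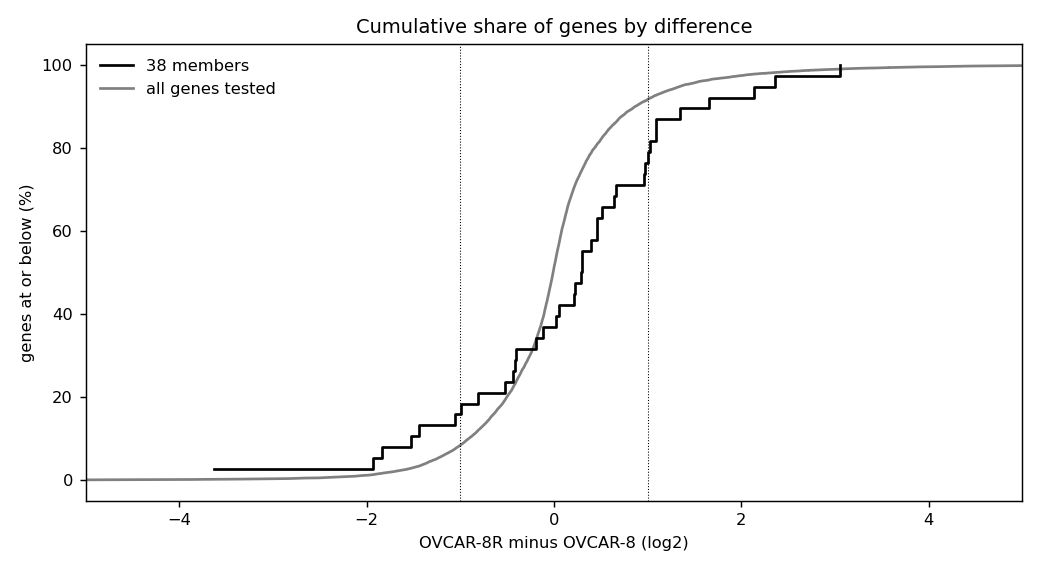
Cumulative percentage of genes (vertical axis) by the difference OVCAR-8R minus OVCAR-8 on the log2 scale (horizontal axis), for the 38 measured genes (black) and all 15931 genes tested (grey), with dotted lines at a 2-fold difference. The black curve lies above the grey one below a difference of -1 and under it around a difference of 1, since 39.5% of the members and 16.7% of all genes were called.

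The promoters of these genes are shown because members whose promoters carry the core letters of the HIF binding site went in different directions. Windows of 300 bases, 250 before to 50 after the gene's start, were taken from RefSeq (GRCh38.p14) for 35 of the 40 genes, without PFKFB2, CA2, VEGFA, NDRG1 and BNIP3L. ACGTG or GCGTG stood on either strand in 77.1% of these 35 windows, and in 48.4% of 27305 promoters of all genes. Base composition differed too, with a median GC content of 69.7% among the members and 58.3% among all promoters, so the 2 shares are not like for like. Among members called higher the core was in 5 of 8 windows, among those called lower in 3 of 5 and among those not called in 18 of 20. With ACGTG alone these were 2 of 8, 3 of 5 and 10 of 20. ACGTG alone was in 45.7% of the 35 windows, beside 21.6% of all promoters. The 250 bases before the start follow for ENO2, which rose, for HK2 and ALDOC, which fell, and for LDHA, which was not called. Capitals mark ACGTG or GCGTG on either strand (CACGT and CACGC are the same letters read on the other strand, and CACGTG holds the core on both).
ENO2, chr12:6914330-6914579, plus strand: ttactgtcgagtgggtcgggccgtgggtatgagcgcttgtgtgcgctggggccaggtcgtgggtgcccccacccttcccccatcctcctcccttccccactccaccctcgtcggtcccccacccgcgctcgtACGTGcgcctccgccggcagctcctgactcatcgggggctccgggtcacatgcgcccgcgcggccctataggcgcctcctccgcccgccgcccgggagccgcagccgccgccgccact
HK2, chr2:74833877-74834126, plus strand: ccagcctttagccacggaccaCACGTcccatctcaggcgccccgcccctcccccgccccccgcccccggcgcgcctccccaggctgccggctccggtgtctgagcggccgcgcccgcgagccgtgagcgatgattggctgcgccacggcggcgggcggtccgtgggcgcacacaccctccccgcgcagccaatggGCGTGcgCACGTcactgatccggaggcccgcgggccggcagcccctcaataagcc
ALDOC, chr17:28576896-28577145, minus strand: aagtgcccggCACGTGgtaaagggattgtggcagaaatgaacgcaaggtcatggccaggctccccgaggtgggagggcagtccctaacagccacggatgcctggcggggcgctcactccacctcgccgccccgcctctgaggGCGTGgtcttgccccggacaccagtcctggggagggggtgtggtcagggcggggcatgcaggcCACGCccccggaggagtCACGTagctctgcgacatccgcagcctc
LDHA, chr11:18394313-18394562, plus strand: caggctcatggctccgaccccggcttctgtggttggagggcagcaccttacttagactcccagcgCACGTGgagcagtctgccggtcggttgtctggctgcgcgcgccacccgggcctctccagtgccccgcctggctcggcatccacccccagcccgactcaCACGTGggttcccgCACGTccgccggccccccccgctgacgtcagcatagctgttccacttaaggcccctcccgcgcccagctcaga
ENO2 has a single core, beginning 118 bases before the start. HK2 has 3, at 229, 55 and 48 bases before the start, and ALDOC has 5 counted per strand, the nearest at 28 bases. LDHA also has 5, made up of a CACGTG at 185 bases, another at 87 bases and a core at 73 bases. A match of letters is a description and not a binding site.

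Hexokinases trap glucose in the cell as glucose 6-phosphate, and the ubiquitous and the inducible isoenzyme moved in opposite directions. HK1, the ubiquitous form, had log2 signals of 9.08, 8.95, 9.13 and 8.85 in OVCAR-8R, against 7.79, 7.43, 7.65 and 7.77 in OVCAR-8. Its difference was 1.34 (standard error, SE, 0.10, limma adjusted p = 2.69e-06), and the lines did not overlap. HK2, the inducible form that many tumors rely on, had 8.62, 8.48, 8.64 and 8.53 in OVCAR-8R, against 10.03, 9.95, 10.02 and 10.02 in OVCAR-8. HK2 fell by 1.44 (SE 0.07, limma adjusted p = 1.05e-07), and its OVCAR-8 arrays were among the tightest of the list (SD 0.03). Within each array the log2 ratio of HK2 to HK1 was -0.44 ± 0.08 in OVCAR-8R and 2.34 ± 0.13 in OVCAR-8 (SD, n = 4 each), a shift of -2.78 (two-sided exact permutation p = 0.0286). Because HK1 and HK2 each separated the lines, in opposite directions, this p was fixed by their own values. HKDC1, a further hexokinase that is not a member, was also higher, at 7.56 in OVCAR-8R and 5.54 in OVCAR-8 (difference 2.02, SE 0.11). HK1 was not called by treat, a stricter test against the 2-fold limit itself.

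Such ratios were compared for 13 pairs of related members, and each p is from the exact permutation test over 4 against 4 arrays, for which 0.0286 is the smallest possible value. In 12 pairs it was reached, and the Benjamini-Hochberg adjusted value over the 13 was 0.031 for each of them. For HK2 over HK1, PFKP over PFKM, ALDOC over ALDOA, PFKFB3 over PFKFB2 and EGLN3 over EGLN1, the members separated the lines in opposite directions. PFKP over PFKL, ENO2 over ENO1, LDHB over LDHA, EPAS1 over HIF1A and P4HA2 over P4HA1 had ratios separated by their single-gene ranges alone. In all these pairs the p was therefore fixed by the values of the single genes and adds nothing to them. Of the pairs at the smallest value, that leaves PDK3 over PDK1 and PFKFB4 over PFKFB3. The pairs were chosen with earlier results of these data known, so the adjusted values are descriptive. A shift in a ratio shows that 2 genes changed unequally. Signals of different probesets are not on a common scale, so the height of a ratio has no meaning of its own.

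GPI, which turns glucose 6-phosphate into fructose 6-phosphate, was at 11.20 to 11.30 in OVCAR-8R and at 10.29 to 10.75 in OVCAR-8, a difference of 0.66 (SE 0.10) that is under 2-fold. Phosphofructokinase commits sugar to glycolysis, and of its 3 subunit genes PFKP, the platelet type, stood out. PFKP had 10.65, 10.72, 10.62 and 10.75 in OVCAR-8R, against 8.64, 8.39, 8.67 and 8.52 in OVCAR-8, and rose by 2.13 (SE 0.08, limma adjusted p = 2.53e-08), a 4.38-fold difference. The liver type PFKL had a difference of 0.46 (0.07) and the muscle type PFKM one of -0.41 (0.09), each without overlap of the lines and under 2-fold. Against PFKM, PFKP shifted by 2.55 within the array, and against PFKL by 1.67 (exact permutation p = 0.0286 for each).

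The PFKFB genes encode bifunctional enzymes that set the level of the strongest activator of phosphofructokinase. None of the 3 was called. PFKFB4 came closest, with 7.69, 7.76, 7.86 and 7.55 in OVCAR-8R and 6.80, 6.69, 6.76 and 6.74 in OVCAR-8, a difference of 0.97 (SE 0.08). It was called without OVCAR-8R replicate 4 (1.03). PFKFB3 differed by 0.46 (0.10) and PFKFB2, the dimmest member of this group, by -0.44 (0.10). Within the array, PFKFB3 shifted against PFKFB2 by 0.90 and PFKFB4 against PFKFB3 by 0.51 (exact permutation p = 0.0286 for each).

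Aldolase cleaves the sugar into triose phosphates. ALDOC, the brain type, had 6.38, 6.43, 6.45 and 6.18 in OVCAR-8R, against 8.33, 8.26, 8.10 and 8.06 in OVCAR-8, and fell by 1.83 (SE 0.09, limma adjusted p = 1.65e-07). ALDOA, the form of most tissues, differed by 0.30 (0.07) and averaged 10.41 in OVCAR-8R and 10.11 in OVCAR-8. The ratio of ALDOC to ALDOA shifted by -2.13 (exact permutation p = 0.0286). TPI1, which interconverts the trioses, was at 12.94 in OVCAR-8R and 12.91 in OVCAR-8, with an interval of the difference from -0.12 to 0.17, and its further probeset gave a difference of -0.02.

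In the later steps, which make ATP, pyruvate and lactate, 2 of 7 measured genes were called, both higher (28.6%, beside 16.7% of all genes). ENO2, the neuronal enolase, had 11.19, 10.92, 11.14 and 10.82 in OVCAR-8R, against 8.83, 8.43, 8.70 and 8.71 in OVCAR-8. Its rise of 2.35 (SE 0.11, limma adjusted p = 1.27e-07) is a 5.11-fold difference. ENO1, the enolase of most cells, was at 13.62 in OVCAR-8R and 13.57 in OVCAR-8, with an interval from -0.10 to 0.21, and the ratio of ENO2 to ENO1 shifted by 2.30 (exact permutation p = 0.0286). PKM, the pyruvate kinase of tumors and many tissues, had 12.90, 12.80, 12.88 and 12.69 in OVCAR-8R, against 11.74, 11.60, 11.83 and 11.74 in OVCAR-8. It rose by 1.09 (SE 0.08, limma adjusted p = 1.96e-06), close to the 2-fold threshold, a call lost with treat and with GAPDH centring, and this gene-level signal does not separate the splice forms of PKM. PGK1, which makes the first ATP of these steps, differed by -0.40 (0.08).

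GAPDH was the gene to which the study's qPCR was referred, with the primers shown here in lower case because they carry no marked part.
GAPDH forward: acatcgctcagacaccatg
GAPDH reverse: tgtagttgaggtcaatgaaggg
GAPDH had 14.20, 14.16, 14.22 and 14.12 in OVCAR-8R, against 13.94, 13.84, 13.91 and 13.87 in OVCAR-8. These 4 arrays did not overlap the other 4, and the difference was 0.29 (SE 0.06, limma adjusted p = 0.00359), or 1.22-fold. When every array was set to its own GAPDH signal, the median difference of all genes was -0.30 in place of -0.01. Of the members 5 were then called higher and 8 lower, so that 38.5% of their calls were upward, beside 60% on the deposited scale. Over all genes the upward share was 28.8% with this scaling (908 higher, 2243 lower), beside 50% on the deposited scale.

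Lactate dehydrogenase is a tetramer of A and B subunits, of which A favors lactate and B favors pyruvate. LDHA was at 13.31, 13.28, 13.24 and 13.29 in OVCAR-8R and at 13.43, 13.39, 13.36 and 13.41 in OVCAR-8. Although these arrays did not overlap, the difference of -0.12 (SE 0.06) had an adjusted p of 0.139 from limma, and with cyclic loess it was 0.0604. LDHB had 12.11, 12.04, 12.17 and 12.04 in OVCAR-8R, against 12.97, 13.14, 13.03 and 13.18 in OVCAR-8. Its difference of -0.99 (SE 0.07, limma adjusted p = 2.32e-06) missed the 2-fold threshold narrowly and passed it when OVCAR-8R replicate 3, OVCAR-8 replicate 1 or OVCAR-8 replicate 3 was left out (-1.02, -1.03 and -1.01). The ratio of LDHB to LDHA shifted by -0.87 (exact permutation p = 0.0286).

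Pyruvate dehydrogenase kinases shut off the entry of pyruvate into mitochondrial oxidation, and both kinase genes of the list were lower in OVCAR-8R. PDK1 had 9.68, 9.69, 9.65 and 9.83 in OVCAR-8R, against 10.78, 10.75, 10.85 and 10.70 in OVCAR-8, and fell by 1.06 (SE 0.07, limma adjusted p = 1.19e-06). That call was lost with treat and with cyclic loess (-0.94). PDK3 had 7.55, 7.77, 7.62 and 7.79 in OVCAR-8R, against 9.23, 8.98, 9.33 and 9.28 in OVCAR-8, and fell by 1.52 (SE 0.10, limma adjusted p = 8.59e-07). The ratio of PDK3 to PDK1 shifted by -0.47 (exact permutation p = 0.0286). PDK2, the kinase outside the list that was called, went the other way, at 8.51 in OVCAR-8R and 7.25 in OVCAR-8 (difference 1.26, SE 0.15). Among 11 tested genes of pyruvate entry, 1 was higher and 2 were lower. The lower ones were MPC1, a subunit of the mitochondrial pyruvate carrier (8.13 in OVCAR-8R, 9.92 in OVCAR-8), and DLD, a subunit of the dehydrogenase complex (8.46 in OVCAR-8R, 9.73 in OVCAR-8).

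**Figure D3:**
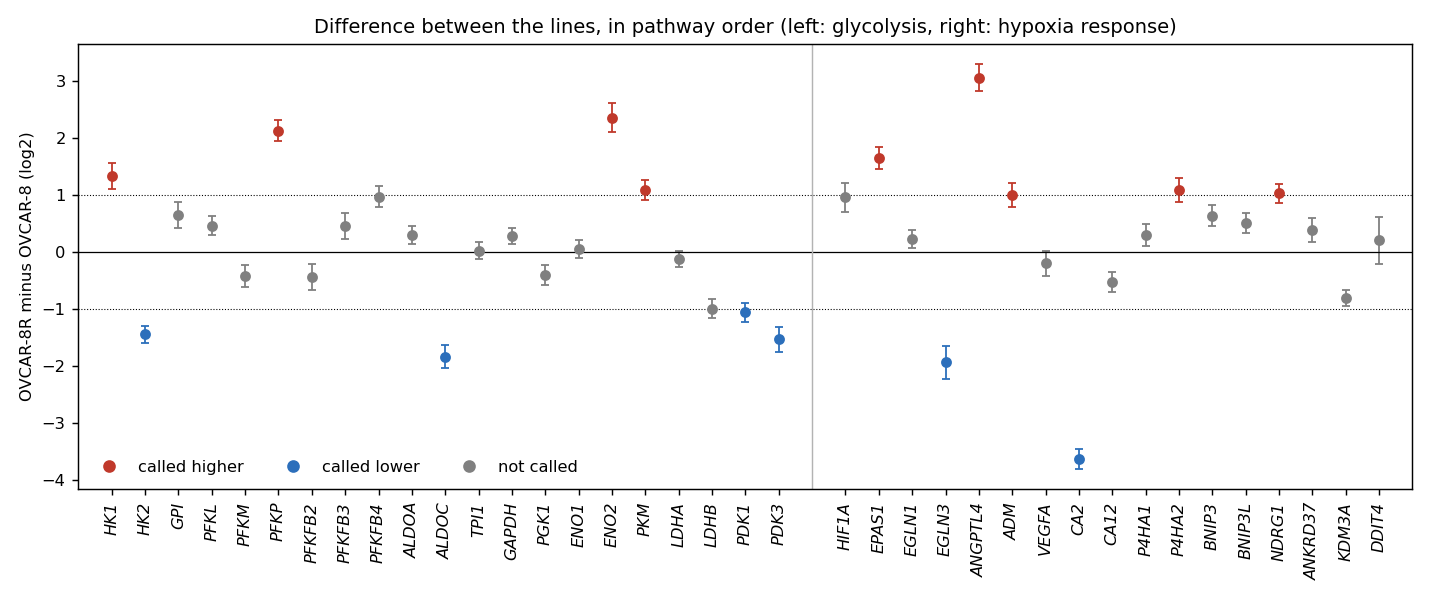
Difference OVCAR-8R minus OVCAR-8 on the log2 scale (vertical axis) for the 38 measured genes in pathway order, with 95% confidence intervals from limma and dotted lines at a 2-fold difference. Red marks the 9 genes called higher, blue the 6 called lower and grey the 23 not called, with ANGPTL4 at 3.06 and CA2 at -3.62 as the extremes.

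**Figure D4:**
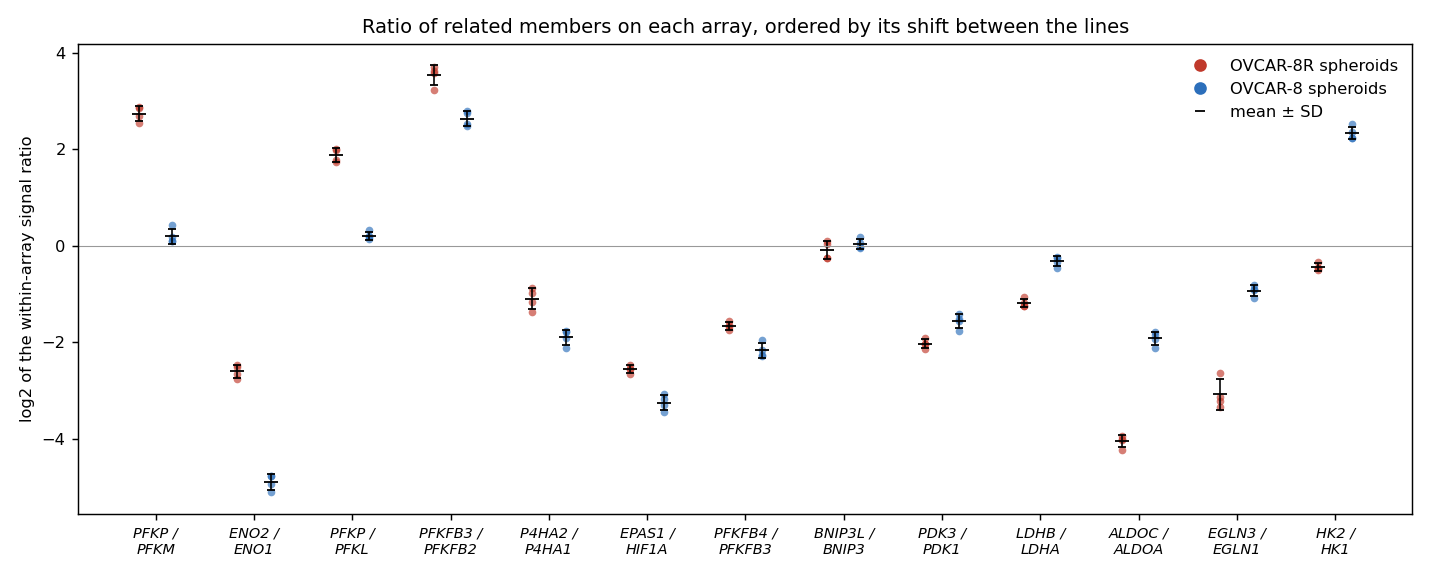
Log2 of the signal ratio of 2 related genes on each array (vertical axis) for 13 pairs, ordered by the shift between OVCAR-8R (red, left of each pair) and OVCAR-8 (blue, right), with mean and SD in black. PFKP over PFKM shifts by 2.55 and HK2 over HK1 by -2.78, and only the arrays of BNIP3L over BNIP3 overlap.

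Of the HIF alpha subunit genes, EPAS1 was called higher in OVCAR-8R, HIF1A was higher by less than 2-fold, and HIF3A, which is outside the list, was not called (difference 0.18, limma adjusted p = 0.166, with overlap). EPAS1, which encodes the second HIF alpha subunit, had 8.79, 9.05, 8.82 and 9.01 in OVCAR-8R, against 7.36, 7.21, 7.32 and 7.19 in OVCAR-8. It rose by 1.65 (SE 0.09, limma adjusted p = 2.16e-07), or 3.14-fold. HIF1A had 11.25, 11.61, 11.37 and 11.68 in OVCAR-8R, against 10.44, 10.37, 10.62 and 10.64 in OVCAR-8, with no overlap and a difference of 0.96 (SE 0.11, limma adjusted p = 5.18e-05) that is under 2-fold. HIF1A was called with cyclic loess (1.09), without OVCAR-8R replicate 1 (1.04) and without OVCAR-8 replicate 4 (1.0015). The ratio of EPAS1 to HIF1A shifted by 0.69 (exact permutation p = 0.0286). HIF is controlled mainly through the stability of its protein, which arrays do not measure.

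The hydroxylases that sense oxygen and mark HIF for degradation differed from each other. EGLN3 had 6.69, 6.66, 6.58 and 7.17 in OVCAR-8R, with array 4 above the others, against 8.55, 8.69, 8.81 and 8.76 in OVCAR-8. It fell by 1.93 (SE 0.13, limma adjusted p = 1.16e-06). EGLN1, the main hydroxylase of most cells, was at 9.79 to 9.92 in OVCAR-8R and at 9.57 to 9.70 in OVCAR-8, a difference of 0.23 (0.07), and the ratio of EGLN3 to EGLN1 shifted by -2.15 (exact permutation p = 0.0286). Among 16 further genes for HIF partners, hydroxylases and degradation, 1 was higher and 1 was lower, which is 12.5% called, beside 16.7% of all genes. CITED2, which competes with HIF for the coactivator EP300, averaged 11.22 in OVCAR-8R and 9.82 in OVCAR-8 (difference 1.39, SE 0.07). ARNT2, a partner subunit, averaged 5.98 in OVCAR-8R and 7.18 in OVCAR-8 (difference -1.20, SE 0.12). ARNT itself differed by -0.31 and VHL, which binds hydroxylated HIF, by 0.21, neither called.

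Among secreted signals, ANGPTL4, an inhibitor of lipoprotein lipase, had the largest rise of the 38 genes and ranked 167 from the top of all genes tested. Its signals were 9.13, 9.04, 8.94 and 8.86 in OVCAR-8R, against 5.77, 6.21, 5.86 and 5.91 in OVCAR-8, a difference of 3.06 (SE 0.11, limma adjusted p = 1.43e-08) or 8.32-fold. ADM, which encodes the vasodilator adrenomedullin, had 8.73, 8.74, 8.85 and 8.64 in OVCAR-8R, against 7.83, 7.91, 7.58 and 7.62 in OVCAR-8. With a difference of 1.003 (SE 0.09, limma adjusted p = 1.10e-05) it lay on the threshold, and its call was lost with median centring, with GAPDH centring, with 16 added to the signal, with treat and when OVCAR-8R replicate 3, OVCAR-8 replicate 3 or OVCAR-8 replicate 4 was left out (0.97, 0.95 and 0.96). VEGFA, the main growth factor of vessels and a standard HIF target, had 9.48, 9.81, 9.52 and 9.79 in OVCAR-8R and 9.84, 9.73, 9.88 and 9.93 in OVCAR-8. These arrays overlapped, and the interval of the difference ran from -0.41 to 0.02 (adjusted p = 0.124 from limma).

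Carbonic anhydrases interconvert carbon dioxide and bicarbonate and so help to buffer acid. CA2, the cytosolic enzyme, had 6.82, 6.63, 6.74 and 6.66 in OVCAR-8R, against 10.40, 10.45, 10.22 and 10.28 in OVCAR-8. Its difference of -3.62 (SE 0.08, limma adjusted p = 8.11e-10) was the lowest of the 38 genes and ranked 29 from the bottom of all genes tested. CA12, a membrane enzyme often raised in hypoxic tumors, was at 7.07 to 7.196 in OVCAR-8R and at 7.54 to 7.76 in OVCAR-8, a difference of -0.52 (0.08) under 2-fold. Of 12 further anhydrase and proton carrier genes tested, 2 were lower and none was higher, which is 16.7% called, the same share as of all genes. CA8, a related protein without enzymatic activity, averaged 5.04 in OVCAR-8R, in the lowest quartile of signal, and 8.24 in OVCAR-8, so its difference of -3.20 (0.10) is best read as a bound. CA5B, a mitochondrial anhydrase, averaged 6.78 in OVCAR-8R and 7.86 in OVCAR-8 (difference -1.08).

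P4HA1 and P4HA2 encode alpha subunits of the enzyme that hydroxylates collagen. P4HA2 had 9.54, 9.44, 9.58 and 9.30 in OVCAR-8R, against 8.54, 8.21, 8.44 and 8.31 in OVCAR-8, and rose by 1.09 (SE 0.10, limma adjusted p = 7.74e-06). The call of P4HA2 was lost with treat and with GAPDH centring. P4HA1 differed by 0.30 (0.09), and the ratio of P4HA2 to P4HA1 shifted by 0.79 (exact permutation p = 0.0286). The mitophagy receptor genes BNIP3 and BNIP3L differed by 0.64 (0.08) and 0.51 (0.08), both under 2-fold, and theirs was the pair whose ratio overlapped between the lines, with a shift of -0.13 (exact permutation p = 0.257).

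NDRG1, a stress-responsive gene long used as a readout of hypoxia, had 12.65, 12.53, 12.58 and 12.50 in OVCAR-8R, against 11.64, 11.39, 11.60 and 11.52 in OVCAR-8. It rose by 1.03 (SE 0.08, limma adjusted p = 2.54e-06), a call lost with array weights, with GAPDH centring, with treat and when OVCAR-8R replicate 1 or else OVCAR-8 replicate 2 was left out (0.9993 and 0.98). KDM3A, a histone demethylase, had 9.004, 9.13, 9.09 and 9.11 in OVCAR-8R, against 9.93, 9.87, 9.91 and 9.85 in OVCAR-8, and its difference of -0.81 (0.06) was under 2-fold. ANKRD37 differed by 0.39 (0.09).

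DDIT4, an inhibitor of mTOR signalling that is induced by hypoxia and other stresses, did not differ between the lines beyond its spread. Its signals were 8.53, 9.28, 8.54 and 9.29 in OVCAR-8R, against 8.77, 8.56, 8.75 and 8.72 in OVCAR-8, a difference of 0.21 (SE 0.19, limma adjusted p = 0.391). OVCAR-8R arrays 2 and 4 lay above every OVCAR-8 array and arrays 1 and 3 below them. Its SD of 0.43 in OVCAR-8R ranked 87 from the top of all genes. The same division into arrays 2 and 4 above arrays 1 and 3 was present in 13 of the 38 members (34.2%), which besides DDIT4 were PFKP, ALDOA, PFKFB2, PDK1, PDK3, HIF1A, EPAS1, VEGFA, BNIP3L, P4HA1, ANKRD37 and KDM3A. The opposite division was present in 17 (44.7%), which were HK1, HK2, PFKL, PFKM, TPI1, PFKFB3, GAPDH, PGK1, ENO1, ENO2, PKM, LDHB, CA2, EGLN1, BNIP3, P4HA2 and NDRG1. Each division was present in 33.8% of all genes. Over all probesets tested, deviations from the line mean correlated at 0.427 for OVCAR-8R arrays 1 and 3 and 0.484 for arrays 2 and 4. For the other OVCAR-8R array pairs they correlated between -0.763 and -0.684. These arrays thus fell into 2 pairs, while the SEs and p-values count them as 4 separate replicates.

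Carriers and side branches of the pathway were given by lists. Of 11 glucose and lactate carriers tested, 1 was higher and 2 were lower. The facilitative carrier SLC2A6 averaged 8.40 in OVCAR-8R and 7.11 in OVCAR-8, SLC2A12 5.81 in OVCAR-8R and 7.23 in OVCAR-8, and SLC16A4, of the monocarboxylate family, 5.72 in OVCAR-8R and 6.83 in OVCAR-8. SLC2A1, the glucose carrier most often used as a HIF target, was at 10.75 to 10.85 in OVCAR-8R and at 10.68 to 11.10 in OVCAR-8 and was not called (difference -0.10). Of 13 other glycolytic isoenzymes and regulators, HKDC1 was higher and GPD2, the mitochondrial glycerol phosphate dehydrogenase, was lower (6.79 in OVCAR-8R, 8.56 in OVCAR-8). In the pentose phosphate branch RPE, an epimerase, was the 1 gene lower of 8 (7.41 in OVCAR-8R, 9.08 in OVCAR-8). In gluconeogenesis and glycogen metabolism PHKA1, a subunit of the kinase that switches on glycogen breakdown, was the 1 gene lower of 15 (6.77 in OVCAR-8R, 9.21 in OVCAR-8). None was higher in those 2 lists, and 6.67% to 27.3% of the genes in these and the pyruvate list were called, beside 16.7% of all genes.

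A wider list of HIF target genes was divided as well, with 10 of 44 higher, 6 lower and 28 not called. That is 36.4% called, beside 16.7% of all genes, with a median difference of 0.14. The largest rises were those of NT5E, which makes extracellular adenosine (11.21 in OVCAR-8R and 5.02 in OVCAR-8, where it lay in the lowest quartile), LGALS1, a galectin (13.23 in OVCAR-8R, 8.87 in OVCAR-8), and LOXL2, a collagen crosslinker (10.80 in OVCAR-8R, 7.13 in OVCAR-8). The largest falls were those of TMEM45A, a membrane protein (6.53 in OVCAR-8R and 8.47 in OVCAR-8), HILPDA, a lipid droplet protein (7.98 in OVCAR-8R, 9.66 in OVCAR-8), and FLT1, a VEGFA receptor (4.54 in OVCAR-8R, in the lowest quartile, and 5.93 in OVCAR-8). Over the 8 pathway lists together, 14 of 130 genes were higher and 16 lower (23.1% called), with a median difference of -0.01.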

How the data were processed

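Deposited values are linear intensities of 33297 probesets on Affymetrix Human Gene 1.0 ST arrays. The authors computed these intensities from total RNA of spheroids by RMA in Affymetrix Expression Console, which corrects background and quantile-normalizes the arrays, so that overall differences in signal between the lines are removed. The sources used here name no genome build. Log2 of each intensity was taken here. GEO's platform annotation names 1 gene for 19460 probesets and several for 1754, and leaves 12083 unnamed here, and 19429 of the single genes were found in RefSeq by their identifier.

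As in the methods, probesets in the lowest 25% of mean signal in both lines were left out. Differences are OVCAR-8R minus OVCAR-8 from limma 3.58.1 under R 4.3.3 (lmFit, then eBayes), without a block, adjusted over all 25628 probesets kept. The methods name Student's t-test, which was run as an alternative. Ratios of related genes were compared by two-sided exact permutation of the arrays. The procedure was tested on simulated data with arrays drawn independently, so that test does not cover the pairing among OVCAR-8R arrays described with DDIT4. Titles call the arrays biological replicates, and p-values measure the spread between them, part of which may be technical. The precision is limited by the number of arrays, 4 for each line. The members, lists, pairs and the rule for naming genes (all called members by array, of each list up to 3 called genes in each direction) were chosen with earlier results of these data known. The printed promoters were picked after their values were seen. Alternatives were other filters, thresholds, tests, scalings, an added signal, array weights, averaged probesets, the replicate number as a block, and fits lacking 1 array.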

Additional observations from a re-analysis of the deposited data

Results flagged for a closer look

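In 7 of 124 groups of 4 arrays 1 array lay far from the other 3, where chance would give about 6.2. In OVCAR-8R, PFKFB3 was 9.24 on array 4 and 9.41 to 9.44 on the others, ANKRD37 was 8.44 on array 1 and 8.54 to 8.56 on the others, and CITED2 was 11.19 on array 4 and 11.22 to 11.23 on the others. In OVCAR-8, P4HA1 was 10.10 on array 4 and 10.31 to 10.34 on the others, CA5B was 7.56 on array 2 and 7.92 to 7.99 on the others, RPE was 8.98 on array 1 and 9.11 to 9.13 on the others, and TMEM45A was 8.66 on array 4 and 8.40 to 8.43 on the others.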

How the results depend on the processing

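Of the 15 called genes, 10 were called in the same direction under each of the 19 alternatives that kept the threshold, and PKM, PDK1, ADM, P4HA2 and NDRG1, all within 0.1 of 2-fold, were not. Leaving out 1 array gave 8 to 10 members higher and 6 to 7 lower. At any size of difference, 21 members were higher and 12 lower, of all genes 4396 and 4776, and of the pathway lists 46 and 43. At 1.5-fold, 13 members were higher and 8 lower, of all genes 2473 and 2779, and of the pathway lists 24 and 24. With treat, 4 members were higher and 5 lower (44.4% of calls upward), and of all genes 832 and 643 (56.4% upward). Of the list genes 10 were higher and 10 lower, and the calls of HK1, PKM, PDK1, ADM, P4HA2 and NDRG1 were lost. With GAPDH centring, 5 members were higher and 8 lower, of all genes 908 and 2243, and of the list genes 9 and 21. TPI1 (-0.26), ENO1 (-0.23), EGLN1 (-0.059) and DDIT4 (-0.0772) then changed sign, and LDHB and KDM3A became calls. That scaling moves every gene by the same amount. LDHA changed sign with cyclic loess (0.0604), and TPI1, between -0.0077 and 0.0394 with 1 array left out, without OVCAR-8 replicate 4. Array weights did not reach full convergence. With the replicate block, 9 members were higher and 6 lower. Arrays of the same number correlated between -0.323 and 0.443 in their deviations. A pairing by number was not apparent, but 4 such values cannot exclude it. Of 440 counts of single lists under the alternatives, 57 moved by over 1.5 times.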
